A study of Homo sapiens with 18 samples.

Results

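The comparison described here set MAVER cells treated with ibrutinib for 6 h against MAVER cells given the solvent DMSO for 6 h, across all genes with enough reads. MAVER (MAVER-1) is a human mantle cell lymphoma line, a B cell cancer that overexpresses cyclin D1. The members are the 3 libraries titled MAVER-IB-6H and the 3 titled MAVER-DMSO-6H, 6 of the 18 samples of the series, and the 11099 of 25369 listed genes whose mean normalized count was at least 10 over the 12 MAVER libraries. IB was read as ibrutinib at 0.4 µM, because the series description names that inhibitor and dose. The other MAVER groups, used here only for contrast, are labelled KPT, read as the exportin inhibitor selinexor at 1.5 µM, and PU, which the sources used here do not define. A second mantle cell lymphoma line, JEKO1 (JeKo-1), has its own IB and DMSO groups. Each of the 6 groups has 3 libraries, named biological replicates without further detail of the cultures; a p-value here reflects the spread among libraries, which may be technical. All cells were grown in medium with serum, and no antigen receptor stimulus is named in the labels. Each group comes from 1 established line.

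Ibrutinib binds covalently to a cysteine in BTK, the kinase that carries the signal of the B cell receptor from SYK and LYN to phospholipase C gamma, calcium, protein kinase C beta and NF-kB. In resting and malignant B cells the same receptor also drives PI3K and AKT, which keep FOXO transcription factors out of the nucleus, and RAS and ERK, which switch on immediate early genes such as EGR1. The series title sets ibrutinib-sensitive cells beside ibrutinib-resistant ones without saying in the labels which line is which. MAVER-1 is known from published work as a line whose growth depends little on BTK.

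The recovered depth was 8415254 to 9810362 reads per IB library and 9897029 to 12085782 reads per DMSO library. Libraries correlated across genes on the log2 scale at 0.9930 to 0.9947 within a group and at 0.9865 to 0.9878 between IB and DMSO. RNA45S5, the ribosomal RNA precursor, stood at 20743, 19941 and 7919 normalized counts with IB and at 16069, 19295 and 13835 with DMSO, so these ranges overlapped. The summed level of 8 B cell markers was 69178 to 71860 with IB and 74920 to 76483 with DMSO. The 3 mantle cell lymphoma markers CCND1, SOX11 and CD5 summed to 57703 to 58479 with IB and 58135 to 59959 with DMSO. Of the 10 T and NK cell markers, CD3D, CD3E, CD3G, CD2 and CD8A were at 0 in all 6 libraries, and the sum did not pass 3.35 in any of them. The 9 myeloid markers summed to 19.3 to 22.3 with IB and 27.6 to 39.1 with DMSO, with CSF1R, FCGR3A, S100A8 and S100A9 at 0. The 11 stromal and epithelial markers summed to 213 to 251 with IB and 233 to 271 with DMSO, mostly EPCAM, with COL3A1, DCN, LUM, PDGFRA, KRT19 and CDH1 at 0. CCND1 itself, which encodes cyclin D1, stood at 57182 ± 371 with IB and 57958 ± 956 with DMSO (SD, n = 3; limma adjusted p = 0.774).

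After 6 h with IB, 1126 genes rose (10.1% of those tested) and 1071 fell (9.65%), at a limma adjusted p under 0.05, 19.8% in either direction. Most changes were small. Of the called genes, 1049 changed by less than 0.3 on the log2 scale, 994 by 0.3 to 1, and 154 by 1 or more. At least 2-fold, 83 genes rose (0.748%) and 71 fell (0.64%). The median log2 fold change over all genes tested was -0.0056, against which every list of genes below is read. Fold changes are IB minus DMSO on the log2(normalized count + 1) scale, on which genes with few reads appear to change less than they did. The IB and DMSO libraries did not overlap in 33.8% of the genes tested (16.6% with IB higher and 17.2% with IB lower). A lack of overlap is therefore given below only as a description, and for the 20 largest rises and falls it was part of the choice. "Rose" and "fell" are used only of genes past this threshold.

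Immediate early genes were lower with IB, and EGR1, EGR2 and EGR3 had few reads or none. EGR1, a zinc finger factor switched on within minutes of receptor signals, had 0.963, 0 and 0 normalized counts with IB, against 43.3, 25.7 and 30.5 with DMSO. In recovered reads this is 1 read over the 3 IB libraries and 113 over the 3 DMSO libraries, an IB to DMSO ratio of 0.0105 (95% interval 0.000264 to 0.0598, counting error only). EGR2 had 2.89, 0 and 2.12 with IB, against 17.5, 13.3 and 13.3 with DMSO, that is 5 reads against 50. Neither gene's libraries overlapped between the groups, and both fell (limma adjusted p = 4.06e-11 for EGR1 and 6.75e-06 for EGR2). EGR3 did not pass the filter: it had 0 reads in the 3 IB libraries together and 41 in the 3 DMSO libraries, at least 11.5-fold lower with IB when 3 reads over the IB group are taken as the floor and the DMSO count as exact. With counting error in both groups, the upper end of the exact 95% interval of the IB to DMSO ratio was 0.112, an 8.94-fold difference.

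The promoters of EGR1 and EGR2 are shown because they hold the CArG box, the short element bound by serum response factor (SRF), through which many immediate early genes are switched on. Both come from RefSeq (build GRCh38.p14), run from 250 bases before to 50 bases after the start, and are written 5′ to 3′ on the gene's strand with CArG boxes in capitals. EGR1 lies on the plus strand (chr5:138465229-138465528) and EGR2, of whose listed promoters only the one with a CArG box is shown, on the minus strand (chr10:62816317-62816616).

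EGR1 promoter: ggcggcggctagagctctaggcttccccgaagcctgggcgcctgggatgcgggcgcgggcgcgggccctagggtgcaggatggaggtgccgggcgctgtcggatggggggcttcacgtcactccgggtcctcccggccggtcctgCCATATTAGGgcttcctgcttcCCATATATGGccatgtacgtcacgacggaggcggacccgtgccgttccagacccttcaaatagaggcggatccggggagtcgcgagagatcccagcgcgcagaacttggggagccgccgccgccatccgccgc

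EGR2 promoter: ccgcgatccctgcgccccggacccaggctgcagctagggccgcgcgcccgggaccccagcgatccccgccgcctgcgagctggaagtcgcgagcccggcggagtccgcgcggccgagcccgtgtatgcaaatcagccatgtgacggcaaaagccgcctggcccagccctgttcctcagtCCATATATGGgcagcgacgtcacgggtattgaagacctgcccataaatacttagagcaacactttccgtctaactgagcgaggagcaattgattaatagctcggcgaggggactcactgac

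The EGR1 window holds 2 CArG boxes and the EGR2 window 1. Searched on both strands, the CArG box occurs in 454 of 35116 promoters of the table (1.29%). Counted by gene, it occurs in 128 of 8346 tested genes with a promoter (1.53%). Of the 26 immediate early genes matched to the table, 3 hold it, the third being SRF itself. SRF transcripts stood at 876 ± 44.9 with IB and 931 ± 27.5 with DMSO (SD, n = 3; limma adjusted p = 0.348). These matches describe letters in a window and do not show binding.

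Of 33 immediate early genes, 24 passed the filter. Of those, 12 fell (50% of 24, with 9.65% of all genes falling) and 3 rose (12.5%, near the 10.1% of all genes). The median log2 fold change of the 24 was -0.26. NR4A3, a nuclear receptor without a known ligand, had 53.9, 40.2 and 31.9 normalized counts with IB, against 115, 110.5 and 121 with DMSO (-1.47 ± 0.16, SE; limma adjusted p = 1.85e-09). JUN, a subunit of the AP-1 factor, had 26.0, 14.5 and 14.9 with IB, against 38.7, 44.8 and 38.3 with DMSO (-1.14 ± 0.22, SE; adjusted p = 8.74e-05). In both genes every IB library lay below every DMSO library. The EGR corepressor gene NAB2, the receptor gene NR4A1 and the G protein regulator gene RGS2 fell by 1.18, 1.06 and 1.04 on the log2 scale, and BHLHE40, JUNB, IER5 and ZFP36L1 by 0.58, 0.65, 0.47 and 0.30. IER2 fell by 0.35, a call lost without IB replicate C (adjusted p = 0.0708). The members that rose were BTG2, an antiproliferative gene, at 2041 ± 46.5 with IB and 1676 ± 13.4 with DMSO, MYC, at 6112 ± 158 with IB and 5327 ± 139 with DMSO (SD, n = 3), and CSRNP1. CSRNP1 overlapped between groups and lost its call in 8 of 19 alternatives. Without IB replicate C the count of members that rose was 5. KLF6, KLF10, ATF3, TRIB1, JUND and NAB1 did not pass the test, with log2 fold changes of 0.06, 0.05, -0.01, -0.04, 0.13 and 0.00. FOS had 6 reads with IB and 10 with DMSO over 3 libraries each, and FOSB 1.93, 1.12 and 3.19 normalized counts with IB against 6.45, 9.53 and 6.25 with DMSO, both under the filter.

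Feedback genes of the ERK pathway were mostly at low levels. Of 22 listed, 11 passed the filter, 2 fell (18.2%, with 9.65% of all genes falling) and 0 rose, with a median of -0.09. DUSP5, a nuclear ERK phosphatase, had 6.74, 4.47 and 7.43 normalized counts with IB, against 20.3, 22.9 and 34.4 with DMSO (-1.88 ± 0.33, SE; limma adjusted p = 1.95e-05). PEA15, which holds ERK in the cytoplasm, fell by 0.33. DUSP2, SPRY1 and NF1 differed by -0.09, -0.04 and -0.14 and did not pass. Without IB replicate A the count of members that fell was 4. The ETS factor genes ETV4 and ETV5 and the phosphatase gene DUSP6, further readouts of ERK, stood below 2 normalized counts on average in both groups, so no change in them was detectable at this depth. SPRY2, an inhibitor of receptor signals to ERK, also lay under the filter but stood higher with IB, at 4.82, 10.1 and 17.0 normalized counts with IB, against 2.76, 4.76 and 7.04 with DMSO. The groups overlapped, in 30 reads with IB and 17 with DMSO (ratio 2.10, 95% interval 1.12 to 4.05, counting error only), and without the filter the limma adjusted p was 0.262.

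Chemokine transcripts of activated B cells were also low. CCL22, a ligand of CCR4, had 4.82, 8.94 and 6.37 normalized counts with IB, against 33.2, 33.3 and 43.8 with DMSO, without overlap (-2.32 ± 0.42, SE; limma adjusted p = 4.29e-05). CCL4 had 1 read with IB and 22 with DMSO, an IB to DMSO ratio of 0.0540 (95% interval 0.00131 to 0.334), and CCL3 had 0 reads with IB and 13 with DMSO. CCL3 was thus at least 3.65-fold lower with IB at the same floor of 3 reads, and 2.57-fold at the upper end of the exact 95% interval (ratio 0.390). CCL3 and CCL4 are chemokines secreted after antigen receptor engagement. Both lie under the filter; without it, the limma adjusted p was 0.0275 for CCL3. Of 18 cytokine, chemokine and receptor genes that passed, 6 fell (33.3%, with 9.65% of all genes falling) and 3 rose (16.7%, with 10.1% rising). IL21R and IL10RA, receptor chains for interleukins 21 and 10, fell by 0.60 and 0.47, while IL4R and IL16 were higher by 0.48 and 0.44. Without IB replicate A, 3 members fell.

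The B cell's own brakes were lower as well. Of 28 inhibitory receptors, phosphatases and adaptors of receptor signalling that passed the filter, 15 fell (53.6%, with 9.65% of all genes falling). Another 3 rose (10.7%, near the 10.1% of all genes), and the list median was -0.28. CD72, an inhibitory co-receptor that recruits the phosphatase SHP-1, had 345, 367 and 289.9 normalized counts with IB, against 885, 857 and 885 with DMSO (-1.40 ± 0.07, SE; limma adjusted p = 1.3e-19). PAG1, the raft adaptor that docks the SRC kinase inhibitor CSK, had 252, 229 and 262 with IB, against 591, 571 and 628 with DMSO (-1.27 ± 0.07, SE). SIGLEC10, a sialic acid-binding inhibitory receptor, fell by 1.12, LILRB4, an inhibitory receptor of the immunoglobulin-like family, by 1.03, and FCRL5, an Fc receptor-like protein, by 0.79. PTPRO, a receptor tyrosine phosphatase, stood at 43.5 ± 3.9 with IB and 108 ± 1.8 with DMSO (SD, n = 3). PTPN6, which encodes SHP-1, was named after its values were seen: it stood at 191 ± 20.6 with IB and 378 ± 27.0 with DMSO (-0.98 ± 0.09 on the log2 scale, SE). CD5, a T cell and mantle cell lymphoma antigen that dampens receptor signals, stood at 154 ± 7.18 with IB and 293 ± 18.8 with DMSO. Of the members that rose, CD22 and LAIR1 were higher by 0.31 and 0.26, and LAX1 by 0.43, a call lost without IB replicate C (adjusted p = 0.0503). CSK itself stood at 4333 ± 74.2 with IB and 4512 ± 56.2 with DMSO (adjusted p = 0.384).

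Components that carry the receptor signal forward moved both ways. Of 19 receptor chains, co-receptors, kinases and adaptors that passed, 5 rose (26.3%) and 7 fell (36.8%), with a median of -0.05. Among all genes, 10.1% rose and 9.65% fell. SYK, the kinase directly upstream of BTK, had 7292, 7436 and 7572 normalized counts with IB, against 5477, 5432 and 5355 with DMSO (0.46 ± 0.04, SE; limma adjusted p = 1.18e-12). CD79B, a signalling chain of the receptor, and CD81, a tetraspanin, rose by 0.63 and 0.37, while CD79A stood at 4996 ± 226 with IB and 4954 ± 76.3 with DMSO (SD, n = 3; limma adjusted p = 0.907). The exchange factor gene VAV1 fell by 0.66, the tetraspanin gene CD82 by 0.63 and the SRC family kinase gene FGR by 0.90. In the calcium and protein kinase C branch, 6 of 27 rose (22.2%) and 4 fell (14.8%). PRKCB, which encodes protein kinase C beta, stood at 4005, 4194 and 4091 with IB, against 1992, 1934 and 1941 with DMSO, without overlap (1.07 ± 0.04 on the log2 scale, SE). RASGRP3, DGKD and ORAI2, an exchange factor, a diacylglycerol kinase and a calcium channel subunit, rose by 0.59, 0.57 and 0.39. In the PI3K branch, 4 of 19 rose (21.1%) and 5 fell (26.3%). PIK3AP1, the adaptor BCAP that links the receptor to PI3K, had 4385, 4448 and 4503 with IB, against 6567, 6128 and 6332 with DMSO (-0.51 ± 0.04, SE). PIK3IP1, an inhibitor of the PI3K catalytic subunit, rose by 0.76 and PIK3CD, the catalytic subunit of leukocytes, by 0.33.

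Of the 11 kinases known to carry the cysteine that ibrutinib binds, 6 passed the filter. BLK, a SRC family kinase of B cells, had 691, 632 and 606 normalized counts with IB, against 476, 476 and 490.1 with DMSO (0.42 ± 0.06, SE; limma adjusted p = 2.62e-06). BTK had 2579.6, 2672 and 2483 with IB, against 2783, 2907 and 2827 with DMSO, which is lower by a small margin (-0.14 ± 0.04, SE; adjusted p = 0.0161). The BTK call was lost when DMSO replicate B or IB replicate C was left out, or the variance trend, at adjusted p of up to 0.0851. JAK3, ERBB2, MAP2K7 and TEC did not pass (adjusted p = 0.179, 0.281, 0.123 and 0.554). BMX and EGFR were at 0 in all 6 libraries, and TXK and ERBB4 had at most 1.12 normalized counts in any of them. These are transcript levels, and kinase occupancy was not measured.

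**Figure D1:**
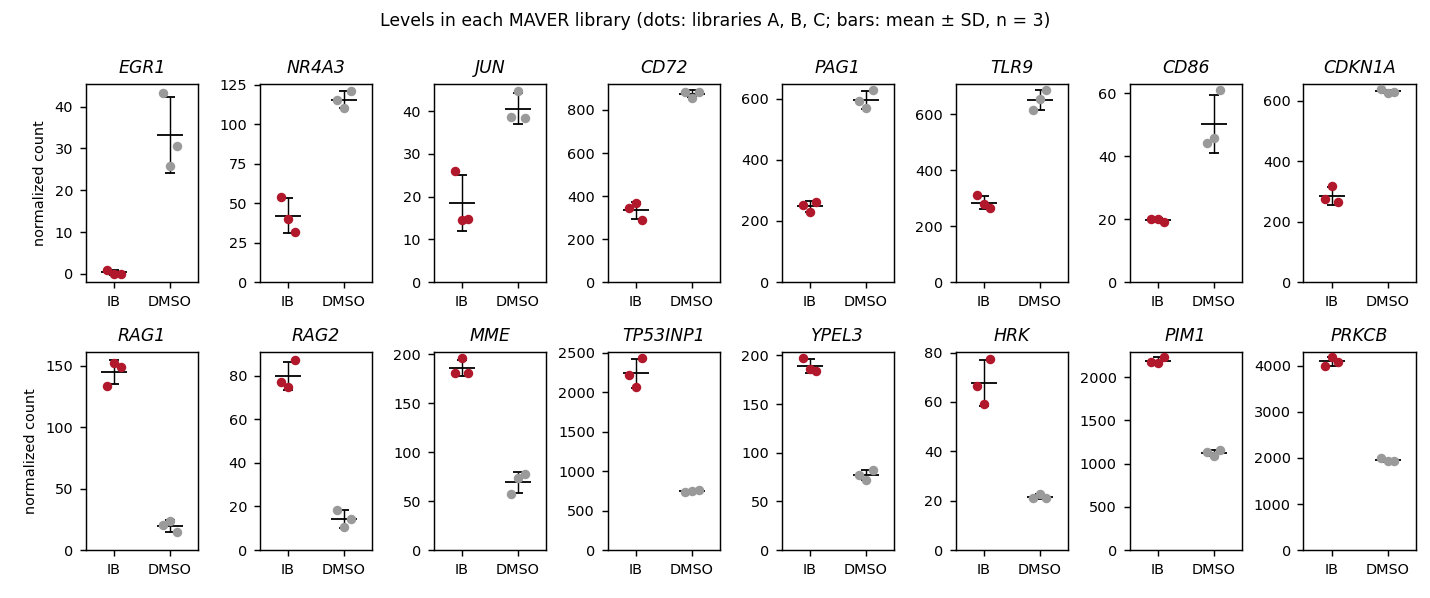
Normalized counts of 16 genes in each library, IB left of DMSO, with a dot per library and bars for the mean and SD (n = 3). In all 16 genes the IB and DMSO libraries do not overlap, as in 33.8% of all genes tested, the upper row from EGR1 to CDKN1A lying lower with IB and the lower row from RAG1 to PRKCB higher.

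Targets of FOXO transcription factors were higher with IB. All 34 listed factors and targets passed the filter over the 12 MAVER libraries, PDK4 at only 7.28 with IB and 6.09 with DMSO on average. Of the 34, 16 rose (47.1%, with 10.1% of all genes rising) and 1 fell (2.94%), with a median of 0.32. RAG1 and RAG2 encode the recombinase that assembles antigen receptor genes in developing lymphocytes. RAG1 had 134, 152 and 149 normalized counts with IB, against 20.3, 23.8 and 14.9 with DMSO, and RAG2 had 77.1, 74.9 and 87.1 with IB, against 18.4, 10.5 and 14.1 with DMSO. Both rose several-fold without overlap, by 2.84 ± 0.20 and 2.43 ± 0.23 (log2, SE; limma adjusted p = 7.44e-15 and 2.38e-11). TP53INP1, a stress protein acting in autophagy and cell death, had 2223, 2066 and 2429.9 with IB, against 741, 745 and 757 with DMSO. YPEL3, a growth-suppressing protein, had 197, 185 and 184 with IB, against 77.4, 72.4 and 82.1 with DMSO (1.28 ± 0.10, SE), and GADD45A, a growth arrest gene, had 369, 397 and 427 with IB, against 210.0, 201 and 174 with DMSO (1.03 ± 0.08, SE). Among smaller rises were the mitophagy kinase gene PINK1 (0.76), the cyclin G2 gene CCNG2 (0.69), KLHL24 (0.54), the insulin receptor gene INSR (0.44) and IRS2 (0.43). BBC3 and FBXO32 rose, but each lost its call in 8 of 19 alternatives. The factors themselves did not pass the test: FOXO1 stood at 1004 ± 46.2 with IB and 982 ± 72.7 with DMSO, FOXO3 at 109.8 ± 4.02 with IB and 86.6 ± 1.59 with DMSO, and FOXO4 at 104 ± 12.1 with IB and 83.2 ± 13.5 with DMSO (SD, n = 3; adjusted p = 0.738, 0.0609 and 0.0618). IL7R and KLF2, textbook FOXO1 targets in lymphocytes, differed by 0.15 ± 0.28 and 0.18 ± 0.08 (SE) and did not pass. S1PR1 was the member that fell, by 0.20, a call lost without DMSO replicate C (adjusted p = 0.1); 2 members fell without DMSO replicate B.

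The core of the FOXO binding site, GTAAACA, was searched on both strands of the same promoter windows, which hold it in 1202 of 35116 cases (3.42%). Of 29 list members matched to the table, 5 hold it in at least 1 listed promoter: FOXO4, TXNIP, PIK3IP1, BCL2L11 and YPEL3. Counted by gene in the same way, 289 of 8346 tested genes with a promoter hold it (3.46%). The YPEL3 promoter is shown as the member with the largest change among them (RefSeq, GRCh38.p14, minus strand, chr16:30096164-30096463), with the motif in capitals.

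YPEL3 promoter: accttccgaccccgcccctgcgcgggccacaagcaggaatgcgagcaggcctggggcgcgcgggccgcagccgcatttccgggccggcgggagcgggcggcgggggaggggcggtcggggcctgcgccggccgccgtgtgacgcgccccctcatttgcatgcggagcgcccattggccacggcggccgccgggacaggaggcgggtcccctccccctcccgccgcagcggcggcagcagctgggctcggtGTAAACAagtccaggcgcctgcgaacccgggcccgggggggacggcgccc

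The YPEL3 match starts within the last 50 bases, downstream of the annotated start. TXNIP, the thioredoxin-interacting protein gene, stood at 2396 ± 63.1 with IB and 2089.9 ± 59.9 with DMSO, and BCL2L11, a BH3-only gene, at 4210.4 ± 64.4 with IB and 3586 ± 117 with DMSO (SD, n = 3). Both rose by a small amount, 0.20 and 0.23 on the log2 scale.

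Genes of early B cell development were higher in the same libraries. Of 19 that passed the filter, 13 rose (68.4%, with 10.1% of all genes rising) and 2 fell (10.5%, near the 9.65% of all genes). The list median was 0.44, and this list shares RAG1 and RAG2 with the FOXO list. MME, the surface peptidase CD10 of early and germinal centre B cells, had 181, 196 and 181 normalized counts with IB, against 57.1, 73.3 and 77.4 with DMSO (1.42 ± 0.13, SE; limma adjusted p = 1.19e-11). CD9, a tetraspanin, had 376, 396 and 357 with IB, against 169, 193 and 156 with DMSO (1.12 ± 0.10, SE). CD38, an ectoenzyme of precursor and plasma cells, had 1142, 1066 and 1106 with IB, against 566, 532 and 611 with DMSO (0.96 ± 0.06, SE). In each of these genes the lowest IB library stood above the highest DMSO library. LEF1, a WNT pathway factor of pro-B cells, had 1426, 1524 and 1531 with IB, against 924, 928 and 915 with DMSO (0.69 ± 0.05, SE). VPREB1, part of the surrogate light chain, had 17.3, 14.5 and 14.9 with IB, against 4.61, 2.86 and 3.91 with DMSO; its mean over the 12 libraries lay under the filter, so it has no test. Its relative VPREB3 fell, at 949.6 ± 64.6 with IB and 1331 ± 52.8 with DMSO. BCL11A was the other member that fell, by 0.23, and the count of members that fell was 1 without DMSO replicate A or B, without IB replicate A or C, and without the variance trend. IGLL1 and CD24 did not pass (adjusted p = 0.265 and 0.399), and CD34 and ERG were at 0 in all 12 MAVER libraries.

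Transcription factors of B cell identity split. Of 31 that passed, 11 rose (35.5%, with 10.1% of all genes rising) and 9 fell (29.0%, with 9.65% falling), with a median of 0.10. SPIB, an ETS factor of mature B cells, had 4012, 4119.9 and 3671 normalized counts with IB, against 7064, 7162 and 6905 with DMSO (-0.84 ± 0.04, SE; limma adjusted p = 3.32e-19). POU2AF1, the coactivator OCA-B, had 4767, 4672 and 4722 with IB, against 2529, 2561 and 2516 with DMSO (0.90 ± 0.05, SE). BACH2, a repressor that restrains plasma cell fate, had 2132, 2124 and 2059 with IB, against 1264, 1178 and 1176 with DMSO (0.80 ± 0.05, SE). Each of these abundant transcripts changed with narrow spread and no overlap. TCF3, which encodes the E2A proteins, and ETS1 rose by 0.67 and 0.40.

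Activation and surface molecules were mixed: 5 of 24 rose (20.8%) and 8 fell (33.3%), with a median of -0.05. The shares of all genes were 10.1% and 9.65%. CD86, a costimulatory ligand, had 20.2, 20.1 and 19.1 normalized counts with IB, against 44.2, 45.7 and 61.0 with DMSO (-1.29 ± 0.22, SE; limma adjusted p = 1.47e-05). CD84 and CD48, both of the SLAM family, fell by 0.74 and 0.49. MS4A1, the CD20 antigen that therapeutic antibodies target, had 9787, 9759.5 and 9771 with IB, against 13291, 12239 and 13353 with DMSO (-0.41 ± 0.04, SE). CD27, a memory B cell receptor of the TNF family, had 477, 454 and 422 with IB, against 213, 216 and 210.3 with DMSO (1.08 ± 0.08, SE). Innate receptors were among the 20 largest falls. TLR9, the endosomal receptor for unmethylated CpG DNA, had 310.2, 278 and 263 with IB, against 614, 655 and 686 with DMSO. TLR10 had 234, 198 and 241 with IB, against 534, 532 and 521 with DMSO, and CD180, a Toll-like receptor homologue of B cells, had 235, 226 and 242 with IB, against 566, 532 and 589 with DMSO. All 3 receptors fell by similar amounts, 1.20, 1.24 and 1.26 on the log2 scale (SE 0.08 each).

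Homing receptors rose in 8 of 26 cases (30.8%) and fell in 4 (15.4%), with a median of 0.11. All genes tested rose in 10.1% of cases and fell in 9.65%. S1PR4, a sphingosine phosphate receptor of lymphocytes, had 1076, 1032 and 921 normalized counts with IB, against 430.2, 413 and 379 with DMSO (1.31 ± 0.06, SE; limma adjusted p = 9.57e-20). CXCR4, the receptor for the stromal chemokine CXCL12, had 11580.3, 12717 and 12029 with IB, against 8984, 8788 and 9070.1 with DMSO (0.44 ± 0.04, SE). CCR7, which guides cells to lymph nodes, rose by 0.48. RAC2, a GTPase of leukocyte motility, and ITGB2, the beta chain of LFA-1, fell by 0.59 and 0.78.

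NF-kB target genes showed no shared direction. Of 22 canonical targets and regulators that passed, 3 rose (13.6%) and 4 fell (18.2%), with a median of -0.04. Among 14 noncanonical ones, 2 rose (14.3%) and 1 fell (7.14%), with a median of 0.07. With 10.1% of all genes rising and 9.65% falling, these small counts say little about NF-kB genes as a group. PIM1, a survival kinase, had 2168, 2167 and 2236 normalized counts with IB, against 1138, 1086 and 1154 with DMSO (0.96 ± 0.05, SE; limma adjusted p = 6.95e-20). BIRC3, a ubiquitin ligase of the noncanonical pathway, had 2695, 2819 and 2889.7 with IB, against 1851, 1797 and 1900.3 with DMSO (0.60 ± 0.05, SE). REL, an NF-kB subunit of lymphocytes, had 628, 640.3 and 736 with IB, against 856, 798 and 886 with DMSO (-0.34 ± 0.06, SE). CD83 fell by 0.28. The canonical members that fell numbered 2 without DMSO replicate B or IB replicate A or B. The noncanonical members that rose numbered 1 without DMSO replicate A or IB replicate B, and those that fell 0 without DMSO replicate A or C or IB replicate B or C, and 2 without IB replicate A. The calls for BCL3, RELB and CHUK were lost in 5 or 6 of 19 alternatives. NFKB1 and NFKB2, which encode p105 and p100 and were named after their values were seen, stood at 1979.6 ± 19.2 and 1818 ± 53.1 with IB, against 2082 ± 61.8 and 1941 ± 60.4 with DMSO (adjusted p = 0.287 and 0.197).

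Few DNA replication genes changed, while mitotic genes leaned upward by small amounts. Of 34 DNA replication genes, 1 rose (2.94%), the GINS complex gene GINS2 by 0.40, and 0 fell, with a median of -0.03. The count that rose was 2 without IB replicate C. Of 36 mitotic genes, 10 rose (27.8%, with 10.1% of all genes rising) and 0 fell, with a median of 0.09. The log2 fold change was positive in 33 of the 36. The count that rose was 6 without DMSO replicate B or IB replicate B, and 5 without the variance trend. CDC25B, a phosphatase that starts mitosis, had 6457, 6323 and 5926 normalized counts with IB, against 3992, 4068 and 3994 with DMSO (0.63 ± 0.04, SE; limma adjusted p = 3.94e-15), and CENPF, BIRC5 and CCNB2 rose by 0.31, 0.23 and 0.21. CDKN1A, the cyclin kinase inhibitor p21, had 275, 317 and 263 with IB, against 636, 624 and 629 with DMSO (-1.15 ± 0.07, SE), and CDKN1C fell by 0.76. Of the 28 CDK inhibitor and p53 pathway genes that passed, 7 rose (25%) and 3 fell (10.7%, near the 9.65% of all genes). The count that rose was 3 without IB replicate A, with no filter and without the variance trend, and 4 without DMSO replicate A or C or IB replicate C.

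Both arms of the BCL2 family contained genes that rose. Of 26 apoptosis genes that passed, 8 rose (30.8%, with 10.1% of all genes rising) and 2 fell (7.69%, near the 9.65% of all genes). The list median was 0.03, and 5 rose without IB replicate A. The count that fell was 0 without DMSO replicate B, and 1 without DMSO replicate A or C or IB replicate A or C. HRK, a BH3-only killer protein, had 66.5, 59.2 and 77.5 normalized counts with IB, against 21.2, 22.9 and 21.1 with DMSO (1.59 ± 0.21, SE; limma adjusted p = 8.9e-08). BMF, another BH3-only protein, had 295, 299 and 274 with IB, against 169, 172 and 179.8 with DMSO (0.73 ± 0.08, SE). BCL2, which holds such killers in check, had 14650.2, 14122 and 14917 with IB, against 10805, 10488 and 10529 with DMSO (0.46 ± 0.04, SE). The related survival gene BCL2L1 rose by 0.27.

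Of the heat shock, endoplasmic reticulum, proteasome and oxidative stress genes listed, more fell than rose, with list medians between -0.18 and -0.09. Of 35 heat shock chaperones and cofactors, 22 fell (62.9%, with 9.65% of all genes falling) and 0 rose, with a median of -0.18. HSPH1, a nucleotide exchange factor for HSP70, had 2741, 2599 and 2595 normalized counts with IB, against 3747, 3549 and 3547 with DMSO (-0.45 ± 0.04, SE; limma adjusted p = 1.03e-11). CHORDC1, AHSA1 and HSP90AB1 fell by 0.40, 0.28 and 0.24. HSPA4L had 0 in all 3 IB libraries and 2.76, 1.91 and 0.782 with DMSO, too few for a fold. It counts among the 35 because the filter was a mean over all 12 MAVER libraries, KPT and PU included. Of 32 endoplasmic reticulum folding genes, 17 fell (53.1%) and 3 rose (9.38%, near the 10.1% of all genes), with a median of -0.15. PDIA3, a disulfide isomerase, had 2175, 2132 and 2187 with IB, against 2844, 2672 and 3003 with DMSO (-0.39 ± 0.05, SE). XBP1, the factor that induces many of them, rose by 0.39. Of 33 proteasome subunits, 12 fell (36.4%) and 0 rose, with a median of -0.09. PSMC2, an ATPase of the regulatory particle, stood at 1974 ± 49.6 with IB and 2396 ± 138 with DMSO (SD, n = 3). Of 23 oxidative stress genes under NRF2, 9 fell (39.1%) and 0 rose, with a median of -0.11. SLC7A11, the cystine transporter, had 211, 213 and 251 with IB, against 385, 377 and 383 with DMSO (-0.76 ± 0.07, SE). Several chaperone genes have near-identical copies between which reads may be split, so their values are uncertain.

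Metabolic genes changed in both directions. Of 31 glycolysis and hypoxia genes that passed, 6 rose (19.4%, with 10.1% of all genes rising) and 7 fell (22.6%, with 9.65% falling). Their median was -0.05, and 4 fell without the variance trend. FBP1, an enzyme of gluconeogenesis, had 226, 240.2 and 242 normalized counts with IB, against 82.0, 67.6 and 75.8 with DMSO (1.64 ± 0.11, SE; limma adjusted p = 6.02e-15). The phosphofructokinase gene PFKL rose by 0.34, while the lactate dehydrogenase gene LDHA fell by 0.26 and the enolase gene ENO2 by 0.49. Of 32 cholesterol and fatty acid genes, 4 rose (12.5%, near the share of all genes) and 7 fell (21.9%), with a median of -0.04. ELOVL6, which lengthens saturated fatty acids, had 527, 533 and 589 normalized counts with IB, against 230.3, 247 and 267 with DMSO (1.15 ± 0.09, SE; limma adjusted p = 1.74e-13). FADS2, a desaturase of polyunsaturated fatty acids, had 504, 488 and 458 with IB, against 821, 784 and 693 with DMSO (-0.66 ± 0.07, SE). The sterol exporter gene ABCG1 rose by 0.47, and SCD and DHCR7 fell by 0.27 and 0.32. VDR, the vitamin D receptor, was among the 20 largest rises, at 121, 126 and 144 with IB, against 49.7, 44.8 and 50.0 with DMSO (1.42 ± 0.16, SE). Its heterodimer partner RXRA, named after its values were seen, had 768, 753 and 719 with IB, against 339, 375 and 368 with DMSO (1.05 ± 0.07, SE). The lysosomal protease gene CTSZ fell by 0.95 and IFI30, the lysosomal thiol reductase of antigen processing, by 0.81. Of 31 lysosome and autophagy genes that passed, CTSZ among them, 6 fell (19.4%), 1 rose (3.23%) and 24 were not called. CSNK1E, a kinase of the circadian clock, had 2212, 2449 and 2328 with IB, against 1034, 1144 and 1042 with DMSO (1.12 ± 0.05, SE). Of 15 circadian clock genes that passed, 3 rose (20%), 1 fell (6.67%) and 11 were not called.

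**Figure D2:**
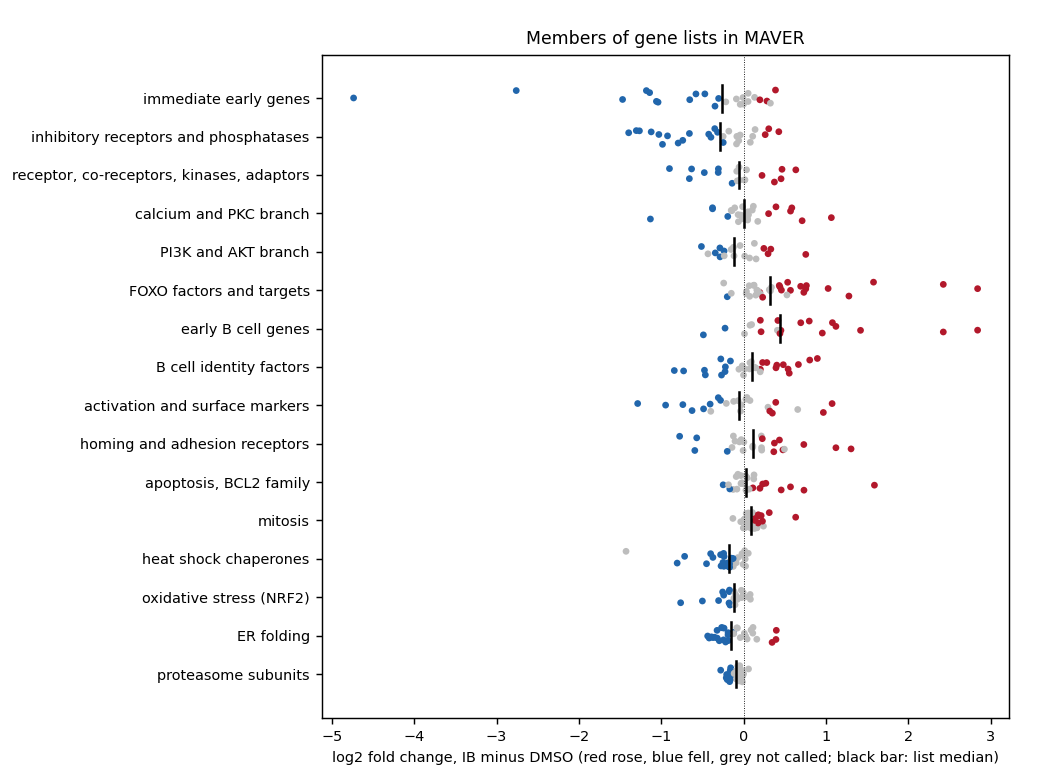
Log2 fold change (IB minus DMSO) of every member tested in 16 gene lists, 1 dot per gene, red for genes that rose, blue for genes that fell and grey for the others; the black bar is the list's median. Early B cell genes and FOXO targets have the highest medians (0.44 and 0.32), and inhibitory receptors and immediate early genes the lowest (-0.28 and -0.26).

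Among the 20 largest rises and falls outside these groups, CDHR3, a cadherin-related protein, stood at 129 ± 16.5 with IB and 32.0 ± 2.89 with DMSO, and FAM69B at 604 ± 56.1 with IB and 195 ± 9.54 with DMSO (SD, n = 3; log2 fold changes 1.97 ± 0.17 and 1.63 ± 0.08, SE). TRIB2, a pseudokinase, had 186, 162 and 209 normalized counts with IB, against 63.6, 58.1 and 94.6 with DMSO (1.38 ± 0.15, SE). MYBPC2, a myosin-binding protein, had 18.3, 23.5 and 25.5 with IB, against 109, 99.1 and 92.2 with DMSO (-2.12 ± 0.20, SE). CYTH4, an exchange factor for ARF GTPases, had 43.3, 30.2 and 22.3 with IB, against 116, 122 and 103 with DMSO (-1.85 ± 0.20, SE). SLA, an adaptor that dampens antigen receptor signalling, had 33.7, 43.6 and 36.1 with IB, against 112, 101 and 109 with DMSO (-1.49 ± 0.15, SE). ITM2C, a membrane protein, had 1116, 1095 and 1055 with IB, against 2441, 2446 and 2462 with DMSO (-1.17 ± 0.05, SE).

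The IB libraries were next tested directly against the other MAVER treatments. IB stood above KPT in 3127 genes (28.2%) and below it in 3002 (27%), and above PU in 3066 (27.6%) and below it in 3052 (27.5%), at a limma adjusted p under 0.05. In either direction this is 55.2% of genes for KPT and 55.1% for PU. The comparisons of IB, KPT and PU with DMSO share the 3 DMSO libraries. Of the 20 largest rises, 12 stood above KPT, 13 above PU and 11 above both, and of the 20 largest falls, 16 stood below KPT, 19 below PU and 16 below both. Against DMSO, 18 of the 20 largest rises also rose with KPT and all 20 with PU. Their median log2 fold change was 1.42 with IB, 1.03 with KPT and 1.08 with PU. Of the 20 largest falls, 17 fell and 1 rose with KPT, and 9 fell and 2 rose with PU. These 40 genes were chosen for their IB levels, and the shares of all genes with KPT or PU against DMSO were not counted. The counts therefore only describe the 40 genes. PRKCB stood at 4097 ± 94.3 with IB, 1853 ± 56.0 with KPT, 1785 ± 44.1 with PU and 1956 ± 32.0 with DMSO (SD, n = 3). It differed by 1.14 ± 0.04 from KPT and 1.20 ± 0.04 from PU (log2, SE; limma adjusted p = 1.33e-23 and 5.06e-25). NAV2, a neuron navigator gene named after its values were seen, stood at 1151 ± 59.4 with IB, 562 ± 42.1 with KPT, 546 ± 14.3 with PU and 506 ± 44.3 with DMSO. ELOVL6 stood at 549.8 ± 34.5 with IB, 215 ± 19.2 with KPT, 216 ± 19.4 with PU and 248 ± 18.2 with DMSO. In these 3 genes every IB library stood above all other MAVER libraries. ITM2C stood at 1089 ± 31.4 with IB, 2903 ± 99.8 with KPT, 2119 ± 109 with PU and 2449.8 ± 11.2 with DMSO, and CD72 at 334 ± 39.5 with IB, 686 ± 35.8 with KPT, 726 ± 20.2 with PU and 876 ± 16.0 with DMSO.

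Other genes stood at like levels with IB and another agent. RAG2 stood at 79.7 ± 6.51 with IB, 74.6 ± 2.77 with KPT, 21.5 ± 6.07 with PU and 14.3 ± 3.98 with DMSO; IB minus KPT was 0.09 ± 0.23 (log2, SE; limma adjusted p = 0.753). S1PR4 stood at 1009.7 ± 80.1 with IB, 941 ± 23.3 with KPT, 725 ± 34.3 with PU and 408 ± 26.0 with DMSO; IB minus KPT was 0.10 ± 0.06 (adjusted p = 0.184). WNT10A, a secreted WNT ligand, stood at 72.4 ± 3.48 with IB, 72.1 ± 12.2 with KPT, 65.6 ± 12.3 with PU and 219 ± 28.2 with DMSO. A p that misses the threshold does not show equal levels. The median log2 fold change of the 24 immediate early genes was -0.26 with IB, 0.30 with KPT and -0.07 with PU, each against DMSO. That of the 34 FOXO genes was 0.32 with IB, 0.71 with KPT and 0.66 with PU. For the 35 heat shock genes it was -0.18 with IB, -0.14 with KPT and 1.20 with PU. The filter spans all 12 MAVER libraries, so a member high with 1 agent could pass through that agent alone. For the 19 early B cell genes the median was 0.44 with IB, 0.45 with KPT and 0.26 with PU. Against DMSO, 13 of these 19 rose and 2 fell with KPT, and 9 rose and 6 fell with PU. The shares of all genes that rose or fell with KPT or PU against DMSO were not counted, so these counts only describe the members. The FOXO target CCNG2 stood at 304 ± 8.03 with IB, 1399 ± 27.0 with KPT, 667 ± 13.0 with PU and 188 ± 12 with DMSO. KPT replicates A and C were highest in RNA45S5 among the MAVER libraries, at 53819 and 66933 normalized counts. Without both, a setting chosen after seeing the data, only KPT replicate B would remain, so no counts of IB against KPT are given.

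**Figure D3:**
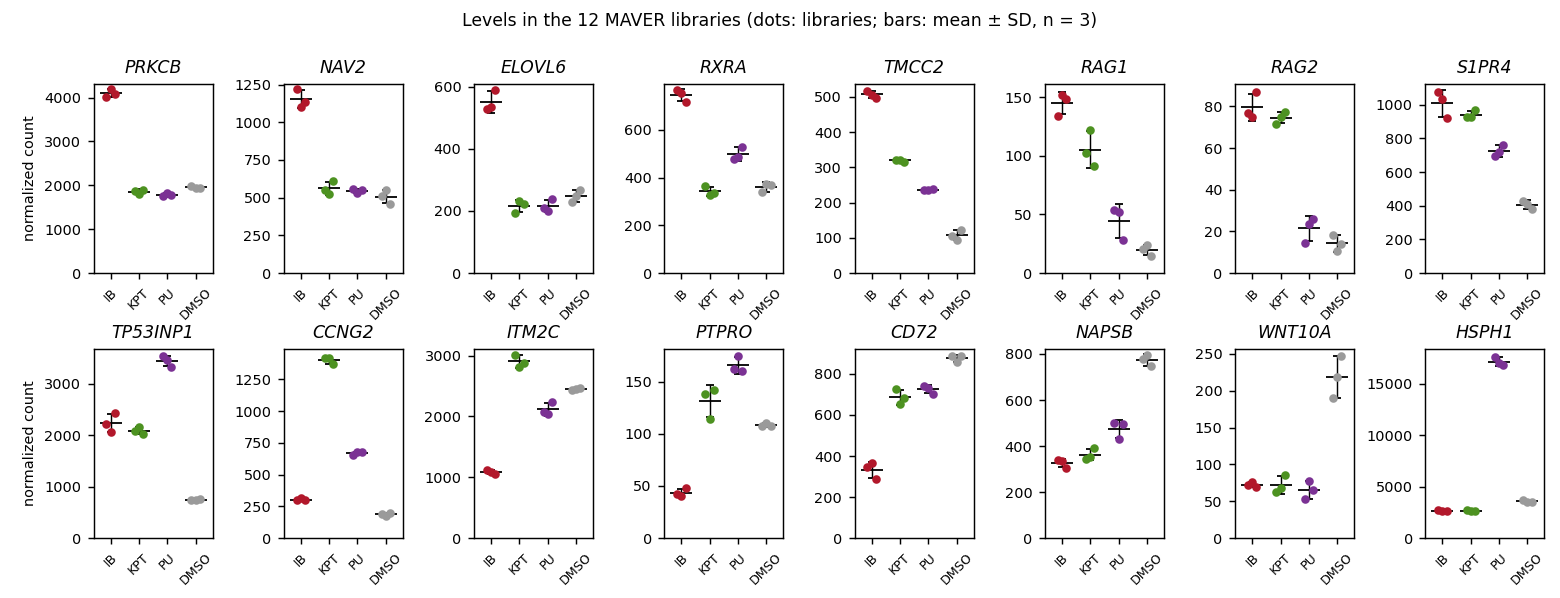
Normalized counts of 16 genes in the 12 MAVER libraries, with IB, KPT, PU and DMSO from left to right, a dot per library and bars for the mean and SD (n = 3). PRKCB, NAV2 and ELOVL6 stand high with IB alone, CCNG2 is highest with KPT, HSPH1 is highest with PU, and WNT10A is low with all 3 agents.

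The effect of IB was last compared between the lines, as the MAVER effect minus the JEKO1 effect. The 10632 genes that passed the filter in both tables were used, and the tables were probably normalized separately. The effects differed in 4390 genes (41.3%; limma adjusted p under 0.05), 2081 of them (19.6%) with the higher and 2309 (21.7%) with the lower effect in MAVER, and in 3918 of these the effects had opposite signs. All 20 of the largest rises in MAVER had the opposite sign in JEKO1, as did 18 of the 19 largest falls measured in both lines. TP53INP1 had 144, 134 and 127 normalized counts in JEKO1 libraries labelled IB, against 314, 304 and 348 in those labelled DMSO, a log2 effect of -1.25 in JEKO1 where MAVER had 1.58. TLR9 had 838, 803 and 865 in JEKO1 labelled IB, against 411, 398 and 375 labelled DMSO, and CD180 had 1069.7, 923 and 1094 labelled IB, against 401, 412 and 418 labelled DMSO. NR4A3 had 164, 116 and 125 in JEKO1 labelled IB, against 28.5, 21.2 and 28.6 labelled DMSO. NAV2 was higher in both lines, by 1.19 in MAVER and 0.32 in JEKO1. Directions in JEKO1 hold for the labels as given; an opposite response of that line and an exchange of its 2 labels cannot be told apart with these files.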

How the data were processed

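RNA sequencing of 12 MAVER libraries was used, and of 6 JEKO1 libraries for the difference between lines. Per the labels' protocols, stranded TruSeq libraries from total RNA were read single-end on a HiSeq, aligned with STAR and quantified with Cufflinks, and DESeq2 compared drug with DMSO. FastQC and build hg19 come from the submitters' processing notes. The sources used here do not name the read counter or its strand setting, so overlapping and antisense genes are uncertain. The deposited tables, 1 per line, hold normalized counts for each gene, not raw reads. All values were whole multiples of the library's smallest value (within 0.01 read for 100% of values), so read counts behind the deposited signal were recovered.

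Differences were tested with limma 3.58.1 in R 4.3.3 (eBayes with trend) on log2(normalized count + 1), all 12 MAVER libraries in 1 fit, keeping genes whose mean was at least 10, two-sided, with Benjamini-Hochberg adjustment over all genes tested. The procedure was tested on simulated data. The members, the 39 gene lists and the tests were chosen with earlier results of these data known. Named genes are the 20 largest rises and falls (called, mean of 50 or more, groups not overlapping), from each list the 5 smallest p and both extreme fold changes, and all members of 4 lists; others are marked in the text, and a few genes the rule would name are not reported here. Gene names altered to dates (17 of the genes tested) were tested but are not named. Intervals on recovered reads are exact at 95% and cover counting error only. Alternatives were other pseudocounts, filters and scalings, eBayes without trend, a replicate block, fits of IB and DMSO alone, each replicate left out in turn, and edgeR 4.0.16 and DESeq2 1.42.0 on recovered reads. Pairs of the same group had a chi-square statistic of 1.86 to 3.22 per degree of freedom, so no library was a copy of another.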

Additional observations from a re-analysis of the deposited data

Results flagged for a closer look

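The effect of IB, taken as log2 fold change against DMSO within each line, was set against the same effect in JEKO1 for 6 of the genes named above, and the difference was tested with limma over the 12 IB and DMSO libraries of both lines. For TP53INP1 the MAVER effect exceeded the JEKO1 effect by 2.83 ± 0.10 (log2, SE; adjusted p = 8.16e-18), for MME by 2.49 ± 0.13 (1.52e-14) and for S1PR4 by 2.26 ± 0.14 (7.65e-13). Those 3 genes were higher with IB in 3 of 3 MAVER libraries and lower in 3 of 3 JEKO1 libraries labelled IB. For NR4A3 the MAVER effect minus the JEKO1 effect was -3.79 ± 0.26 (log2, SE; limma adjusted p = 6.98e-12), for CD180 -2.58 ± 0.10 (3.09e-17) and for TLR9 -2.28 ± 0.10 (4.47e-16). Those 3 genes were lower with IB in 3 of 3 MAVER libraries and higher in 3 of 3 JEKO1 libraries labelled IB. The genes were chosen after their values were seen. An exchange of labels in JEKO1 cannot be told apart from an opposite response. The groups have 3 libraries each, too few for a test of single outlying libraries.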

How the results depend on the processing

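Counts of genes that rose or fell with IB against DMSO stayed within 1.5 times the reported 1126 and 1071 under all 19 alternatives. They were 1213 and 1134 with edgeR, 981 and 915 with DESeq2, 918 and 801 without the variance trend, and 992 and 927 of 16640 genes with no filter. Leaving out 1 replicate gave 889 to 1064 genes that rose and 805 to 969 that fell. Rescaling to equal totals moved the median of all genes to 0.0004. Whether replicate letters pair the libraries is not settled by these values. Deviations of the same letter correlated at -0.01, 0.06 and 0.07 across genes, and those of different letters at -0.08 to 0.02. With the letter as a replicate block, 1100 genes rose and 1055 fell. Of 233 named genes that were called, 192 kept the call in every alternative that tested them, 41 lost it in at least 1 and 0 reversed. Other filters left some low genes untested: of 299 named genes, 274 were tested at a mean of at least 50. All 40 largest changes kept the call, at adjusted p of up to 0.00505. Without the KPT replicates highest in RNA45S5, chosen after seeing the data, 1165 genes rose and 1089 fell with IB against DMSO. Depth limits genes under about 10 normalized counts, where EGR3, CCL3, CCL4 and VPREB1 lie.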
